A study of Homo sapiens with 6 samples.

Results

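The peaks described here are the MYC binding sites of ONS76 cells on chromosome 7 with a summit at or beyond position 70000000 (hg19), as mapped by sequencing of immunoprecipitated chromatin (ChIP-seq). In the 3 MYC libraries, replicates 1, 2 and 3, this rule held for 930, 678 and 687 peaks. Merging peaks with an overlap of 1 bp or more gave 1077 places of 27801 in the whole genome and 61.1% of the 1763 places on chromosome 7. No place lay on both sides of the boundary. ONS76 is an established human medulloblastoma cell line. The cells carried the engineered genotype "Inducible SOX2", and the labels name no treatment. MYC was precipitated with the antibody clone Y69, and the labels list another 3 libraries precipitated with normal IgG, a non-specific antibody. No values of the IgG libraries by themselves were analysed here. According to the study's methods, independent immunoprecipitations from a single batch of chromatin were combined, so the spread between libraries may be technical, and it was not shown to hold variation between cultures.

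MYC is a transcription factor that pairs with MAX and binds DNA at E-boxes, most often near the starts of active genes. It is known for driving genes of ribosome production, metabolism and cell division, and it is a familiar oncogene of medulloblastoma. The long arm of chromosome 7 carries genes for the replication helicase subunit MCM7, the cell cycle kinase CDK6, the histone methyltransferase EZH2, the receptor kinase MET and the hedgehog signal transducer SMO. Which of the places lie at these genes cannot be said from an annotation in hg38, the build at hand, since the peaks are in hg19.

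In each library MACS2, the peak caller used by the authors, compared the fragments stacked at a peak's summit with a local background, which is the larger of a genome-wide level and the level of a control around the peak. The genome-wide level also measures depth. Replicate 1, at 7.79 fragments, was covered more deeply than replicate 2, at 5.84, and replicate 3, at 4.76. Below, relative background is the local background of a peak divided by the genome-wide level of its own library. The stretch from 70 Mb was singled out because its relative background was high in 10 Mb parts of the chromosome. Background is therefore given as a description, and so are fold enrichment and fragment numbers, which hold it. Density, peak width and sharing between replicates were not values of the rule and were tested. Peaks are called against the same background, however, so these 3 measures are not independent of it either.

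The median background at the peaks from 70 Mb was high in every 10 Mb part of the stretch, though not at every peak. The median was 1.72, 1.56 and 1.57 times the genome-wide level in replicates 1, 2 and 3, a mean of 1.62 ± 0.0877 (SD, n = 3). At chromosome 7 peaks below 70 Mb it was 1.18, 1.07 and 1.09. The ratio of both medians was 1.45, 1.46 and 1.45, and in no replicate did a 10 Mb part from 70 Mb fall to the level of a part below 60 Mb. The 9 parts from 70 Mb had medians of 1.59 to 1.79 in replicate 1, 1.42 to 1.59 in replicate 2 and 1.47 to 1.62 in replicate 3. In the 6 parts below 60 Mb the medians were 1.10 to 1.21, 1.02 to 1.07 and 1.04 to 1.10. Among the peaks from 70 Mb, 87.7%, 65.04% and 73.1% had a background of at least 1.5 times the genome-wide level. Over all peaks of the genome this share was 21.9%, 12.2% and 14%, and over the chromosome 7 peaks below 70 Mb it was 15.4%, 7.26% and 8.76%. Within the stretch the share varied between 10 Mb parts. It ran from 72.4% to 93.3% in replicate 1, from 40% to 71.2% in replicate 2 and from 39.4% to 83.8% in replicate 3.

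The rise in background did not lie at 70 Mb but at the longest interval of the chromosome without a peak in any replicate. This interval ran from 56174502 to 63030877 (hg19), 6.86 Mb, and holds the centromere. In the last 5 Mb before it the median relative background was 1.14, 1.04 and 1.08 in replicates 1, 2 and 3 (39, 32 and 25 peaks). In the first 5 Mb after it the median was 1.62, 1.44 and 1.51 (54, 40 and 37 peaks). The rule left out the few peaks between the interval and 70 Mb (55, 40 and 37), which are nearly the same set. Their medians of 1.61, 1.44 and 1.51 were somewhat under the 1.72, 1.56 and 1.57 beyond 70 Mb and well above those before the interval. They were slightly above the 1.59, 1.42 and 1.47 of the part from 80000001 to 90000000, which lies inside the stretch. A background of at least 1.5 times the genome-wide level was found at 61.8%, 42.5% and 54.1% of the peaks left out. In the 2 Mb window that begins at 64000001 the medians were only 1.59, 1.26 and 1.34. The consensus places nearest to the boundary did not show a rise at 70 Mb either. Just outside it, the place from 67974089 to 67975035 had a relative background of 1.61, 1.86 and 1.94, and fold enrichments of 2.81, 3.20 and 3.22. Next to it outside, the places from 66843267 and from 66845340 were at 1.76 to 1.95 in the replicates that called them. The 3 nearest places inside were not higher as a group. The one from 71091060 to 71091461 was at 1.68 in replicate 1 and 1.65 in replicate 3, with folds of 2.85 and 3.16 and no peak in replicate 2. The one from 71098288 to 71099307 was at 1.58, 1.47 and 1.65, with folds of 7.87, 4.91 and 5.65. The next, from 72298354 to 72299456, was lower, at 1.43, 1.22 and 1.23, with folds of 5.03, 5.40 and 3.81.

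**Figure D1:**
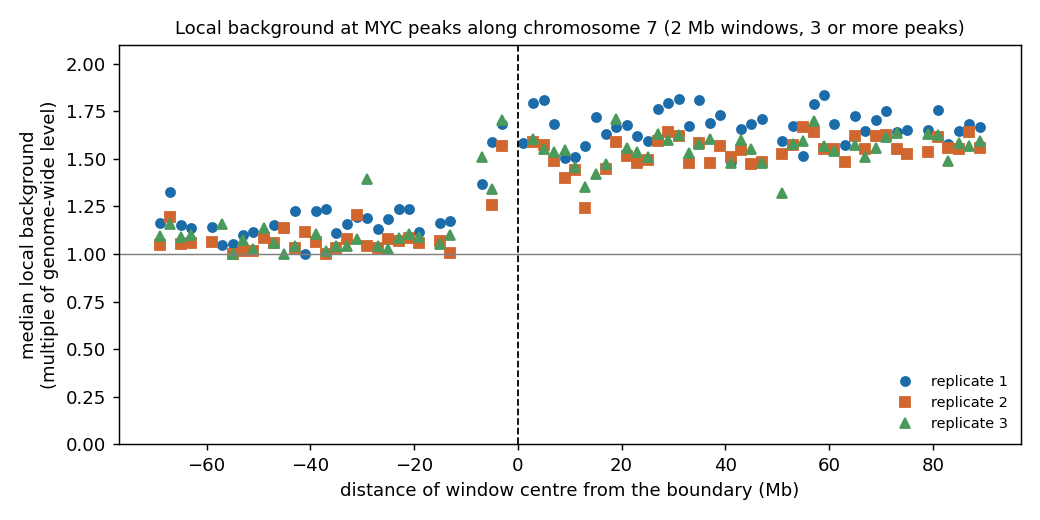
Median relative background of MYC peaks in 2 Mb windows of chromosome 7 (vertical axis, multiples of the genome-wide level) against the distance of the window's centre from the 70 Mb boundary (horizontal axis, Mb), with 1 point per replicate and only windows with 3 or more peaks. Windows left of the interval without points lie close to 1, and windows right of it, which starts before the dashed boundary, lie mostly near 1.5 to 1.75.

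Hardly any peak from 70 Mb had a background within 0.1% of the genome-wide level. This was the case for 8, 11 and 9 peaks in replicates 1, 2 and 3, or 0.860%, 1.62% and 1.31%. Below 70 Mb there were 40, 122 and 95 such peaks, or 6.61%, 27.7% and 21.9%. Over all peaks of the genome the share was 28.9%, 40.4% and 39.97%, so the peaks below 70 Mb were themselves under the genome's share. The middle 50% of the peaks from 70 Mb spanned 1.59 to 1.86 in replicate 1, 1.46 to 1.68 in replicate 2 and 1.49 to 1.70 in replicate 3. The highest value of any such peak was 3.01, 2.995 and 3.13. When only backgrounds set by the widest control window (10000 bp) or the genome-wide level were used, the ratio of the medians was 1.47 ± 0.00880 (SD, n = 3). For scale, the median over all chromosome 20 peaks was 1.95 ± 0.103, and over the chromosome 5 peaks below 20 Mb it was 1.90 ± 0.0914 (SD, n = 3), both above the stretch on chromosome 7. These stretches too had been noticed for their background, and no test was made.

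Median fold enrichment and median fragment numbers at the summits moved in opposite directions across the boundary. From 70 Mb the median summit held 53, 40 and 36 fragments in replicates 1, 2 and 3, against 45, 35 and 31 below 70 Mb. In units of the genome-wide level this was 6.81, 6.85 and 7.57 against 5.78, 5.99 and 6.52, a ratio of 1.16 ± 0.0175 (SD, n = 3). Median fold enrichment, in contrast, was 3.64, 4.09 and 4.31 from 70 Mb and 4.20, 4.68 and 4.94 below it, a ratio of 0.871 ± 0.00421 (SD, n = 3). Each of the 3 replicates showed a higher median of fragments and a lower median fold from 70 Mb. The median folds of single 10 Mb parts overlapped, however. They were 3.42 to 4.79, 3.61 to 4.56 and 3.90 to 5.54 in the 9 parts from 70 Mb. In the 6 parts below 60 Mb they were 3.62 to 4.59, 4.26 to 4.82 and 4.50 to 5.14. The peaks from 60 to 70 Mb had median folds of 4.22, 4.48 and 4.90. The background is the denominator of the fold, so these values are not independent of the rule that chose the stretch. After subtraction of the local background, the median summit kept 5.07, 5.28 and 5.94 times the genome-wide level from 70 Mb and 4.40, 4.82 and 5.41 below it. At a given p-value a higher background requires a larger remainder too, so this difference is not independent of the rule either.

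**Figure D2:**
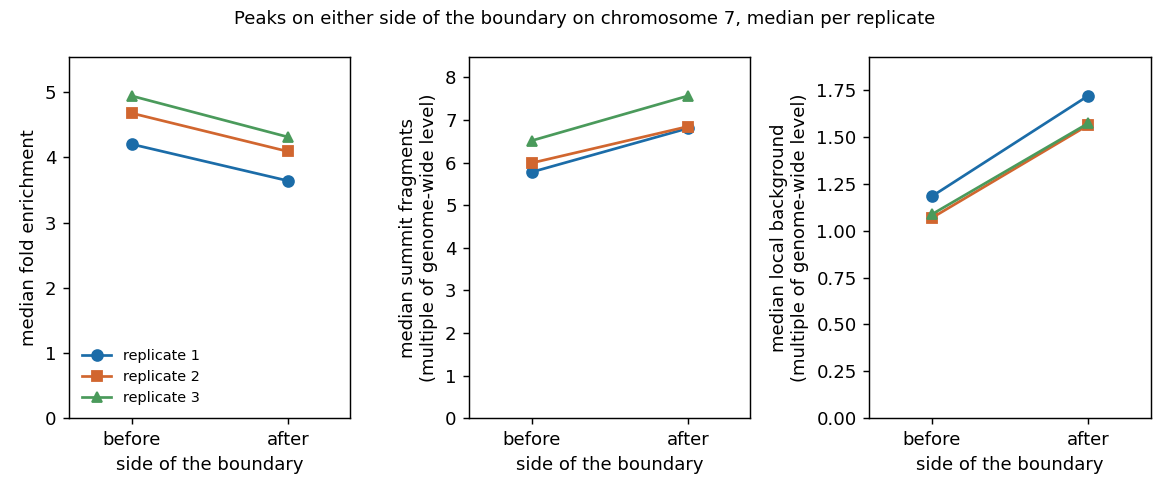
Median fold enrichment, median summit fragments and median local background (the last 2 in multiples of the genome-wide level) of chromosome 7 peaks before and after the 70 Mb boundary, with 1 line per MYC replicate. The fold falls in all 3 replicates while fragments and background rise.

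The deposited p-values were nearly level across the boundary. The median −log10 p was 15.6, 14.1 and 13.8 from 70 Mb and 15.9, 14.5 and 14.1 below it. The weakest peaks called from 70 Mb held 23, 17 and 18 fragments in replicates 1, 2 and 3, and those below 70 Mb held 19, 18 and 15. Among peaks with a −log10 p below 10, the median summit held 36, 30 and 26 fragments from 70 Mb and 29, 24 and 21.5 below it, with folds of 2.54, 2.92 and 3.14 against 2.90, 3.27 and 3.46. Among peaks at 50 or more, it held 138, 118 and 102 fragments against 114, 94 and 85, with folds of 9.64, 11.9 and 12.5 against 10.9, 12.2 and 13.0. At a given p-value a higher background fixes both a larger number of fragments and a lower fold, so these differences restate the background by which the stretch was chosen.

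Peaks from 70 Mb were packed 10.5, 7.62 and 7.72 to the Mb in replicates 1, 2 and 3, over the 88.96 Mb up to the end of the last peak. Below 70 Mb there were 8.64, 6.30 and 6.20 peaks per Mb. The density from 70 Mb was 1.21, 1.21 and 1.25 times as high (mean 1.22 ± 0.0207, SD, n = 3). It was higher in 3 of 3 replicates, with p = 0.25 (adjusted p = 0.375 over 3 tests, exact two-sided sign-flip permutation test over 3 replicates), and 0.25 is the smallest p that 3 replicates allow. With the interval around the centromere left out of the length, the ratio was 1.10 ± 0.0187 (SD, n = 3). The size of the ratio also depended on the boundary. It was 1.09 ± 0.0115 with a boundary at 60 Mb and 1.07 ± 0.0263 with one at 80 Mb (SD, n = 3).

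Within the stretch the density varied far more than across the boundary. The part from 100000001 to 110000000 held 149, 108 and 121 peaks in replicates 1, 2 and 3, a mean of 126 ± 20.95 (SD, n = 3). The part from 70000001 to 80000000 held 136, 112 and 109 peaks, more than the former in replicate 2 and fewer in replicates 1 and 3. The part from 80000001 to 90000000 held only 50, 30 and 33, and the part from 140000001 to 150000000 held 50, 42 and 37. Every replicate therefore had the dense and the sparse parts in common. The sparse part from 140000001 had the highest median fold of the 9 parts in replicates 1 and 3, at 4.79 and 5.54. In replicate 2 its median was 4.51, just under the 4.56 of the part from 100000001.

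**Figure D3:**
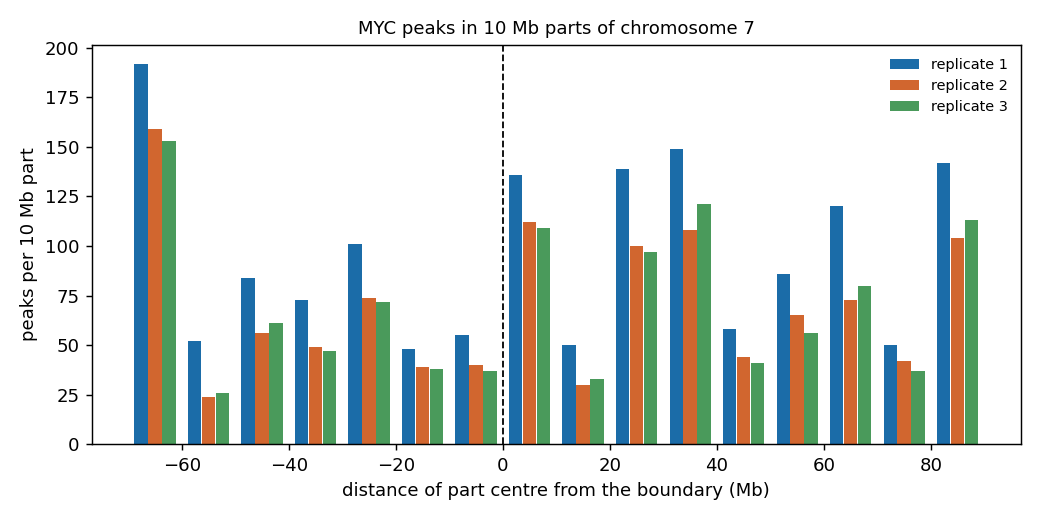
Number of MYC peaks (vertical axis) in each 10 Mb part of chromosome 7, plotted at the distance of the part's centre from the 70 Mb boundary (horizontal axis, Mb), with 1 bar per replicate. The last part is cut short by the end of the chromosome. Dense and sparse parts alternate on both sides, and the part farthest left, with 192, 159 and 153 peaks, is the densest of the chromosome.

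At a finer scale, MYC places from 70 Mb were spread unevenly. Of the 89 windows of 1 Mb, 24 held 10 or more consensus places, which are places with peaks from at least 2 replicates. These windows held 427 of the 669 consensus places, 63.8%, while 12 windows held none. No such counts are given for other stretches, so the unevenness was not shown to be particular to this one. The median distance between the starts of neighbouring consensus places was 43.5 kb from 70 Mb and 38.9 kb below it. The most crowded window was from 73000001 to 74000000, with 43 consensus places, 33 of them found in all 3 replicates. It gave 53, 42 and 44 peaks in replicates 1, 2 and 3. The window from 100000001 to 101000000 followed with 37 consensus places and the one from 99000001 to 100000000 with 27. The longest interval without a consensus place ran from 144533491 to 148395299, 3.86 Mb, inside the sparse part named above.

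The consensus of 669 places covered 532 kb with a median width of 675 bp. It was 62.1% of the 1077 places, and 62.4% of all places in the genome were consensus places. All 3 replicates had a peak at 491 places, or 45.6% (95% exact binomial interval 42.6 to 48.6%, counting error only). The share was 45% over the whole genome and 46.9% (43.2 to 50.8%) below 70 Mb. Replicate 1 shared another 75 places with replicate 2 alone and 89 with replicate 3 alone, and 14 places were missing from replicate 1 only. Below 70 Mb these 3 counts were 47, 52 and 14 of 686 places. Of the 408 places in a single replicate from 70 Mb, 272 were in replicate 1, 70 in replicate 2 and 66 in replicate 3. Replicate 1 thus held 66.7% of them, against 70.9% below 70 Mb. Peaks at such places were 29.2%, 10.3% and 9.61% of the peaks from 70 Mb in replicates 1, 2 and 3. The shares were 29.4%, 9.98% and 6.68% below 70 Mb and 31.0%, 7.86% and 8.15% over the genome.

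Sharing between replicates was not shown to differ across the boundary. Peaks at places found in all 3 replicates were 53.1%, 76.5% and 75.3% of the peaks from 70 Mb in replicates 1, 2 and 3. Below 70 Mb these shares were 54.2%, 76.2% and 78.1%, and over the genome 50.7%, 77.8% and 75.9%. The difference was -1.10, 0.358 and -2.86 percentage points (mean -1.20 ± 1.61, SD, n = 3, exact two-sided sign-flip permutation test, p = 0.5, adjusted p = 0.5). The size of the difference depended on the setting. It was -3.62 percentage points with a boundary at 80 Mb and -2.64 with equal numbers of peaks in each list, both with an exact permutation p = 0.25, and it turned to 0.715 when summits at most 200 bp apart were joined in place of overlapping peaks. With a replicate left out, the measure was the share of peaks at places found in both remaining replicates. Its difference was -2.37 percentage points without replicate 1 and -0.0928 without replicate 3.

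Strong peaks were shared almost without exception on either side. From 70 Mb, all 135, 63 and 73 peaks with a −log10 p of 50 or more were at places found in all 3 replicates. Of the peaks below 10, the share was 12.8%, 45.2% and 44.6% in replicates 1, 2 and 3, against 11.6%, 47.3% and 46.8% below 70 Mb. In replicate 1 a −log10 p from 10 to 20 went with a share of 37.2% (31.6 to 43.0%) from 70 Mb and 45.6% (38.4 to 52.9%) below it, and these intervals overlap. Median fold followed sharing. It was 5.23, 4.63 and 4.93 for peaks found in all 3 replicates, 3.31, 3.34 and 3.41 for those in 2 and 2.75, 2.82 and 3.0001 for those in 1. The median relative background did not follow it in the same way, at 1.73, 1.55 and 1.57 for peaks found in all 3 replicates and 1.68, 1.61 and 1.61 for those in 1.

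**Figure D4:**
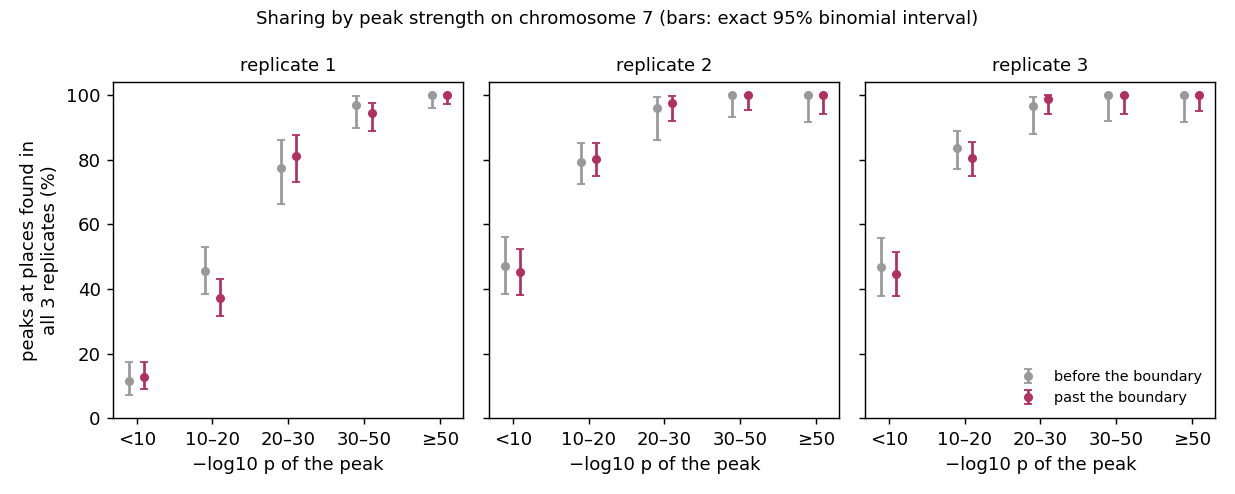
Share of chromosome 7 peaks at places found in all 3 replicates (vertical axis, %) by class of −log10 p (horizontal axis), with 1 panel per replicate, for peaks before (grey) and past (red) the 70 Mb boundary. Bars are exact 95% binomial intervals and cover counting error only. The intervals of both sides overlap in each class, and the share reaches 100% at a −log10 p of 50 or more.

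Where 2 libraries both had a peak, their fold enrichments ranked the places alike. From 70 Mb, Spearman's rho of fold between replicates 1 and 2 was 0.819 across 566 places. Replicate 3 gave a rho of 0.826 with replicate 1 across 580 places and of 0.845 with replicate 2 across 505. Below 70 Mb the 3 values were 0.796, 0.805 and 0.824. Places are not independent replicates, and these values are descriptions. The relative background of the same places followed a common order less closely, with a rho of 0.328, 0.294 and 0.476 from 70 Mb. The median distance between their summits was 33, 32.5 and 35 bp, and the share of summits no more than 100 bp apart was 82.5%, 82.1% and 81.98%.

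Peaks from 70 Mb were slightly narrower than those below. The median width was 498 bp, 452 bp and 434 bp in replicates 1, 2 and 3, against 515 bp, 463 bp and 458 bp. The ratio was 0.964 ± 0.0146 (SD, n = 3), lower than 1 in 3 of 3 replicates (exact two-sided sign-flip permutation test, p = 0.25, adjusted p = 0.375). The difference depended on the boundary. With a boundary at 60 Mb the ratio was 0.992 ± 0.00952 (SD, n = 3, exact two-sided sign-flip permutation test, p = 0.5). The medians were then 506 bp, 454 bp and 440.5 bp against 510.5 bp, 453 bp and 448 bp. Peaks from 60 to 70 Mb had medians of 626 bp, 580 bp and 614 bp. The widest consensus place was from 100462958 to 100466272, 3315 bp, where the libraries together called 7 peaks. The next was from 116164667 to 116167273, 2607 bp, with 6 peaks whose strongest summits lay up to 1352 bp apart between libraries. The last of these, from 100025678 to 100028173, was 2496 bp wide, and each library called it as a single peak, with folds of 14.1, 13.2 and 11.9.

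High fold enrichment was found at a small share of the places. A fold of 10 or more was reached by 63, 52 and 66 peaks from 70 Mb in replicates 1, 2 and 3, which is 6.77%, 7.67% and 9.61%. Over the genome the share was 7.6%, 7.24% and 8.9%, and below 70 Mb it was 9.75%, 9.52% and 11.3%. At 45 of the 491 places found in all 3 replicates, the fold was at least 10 in every replicate, and at 3 it was at least 20. Below 70 Mb these counts were 30 and 5 of 322 places.

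The strongest place was from 99697890 to 99699975, 2086 bp wide. Its fold enrichment was 38.9, 40.7 and 48.2 in replicates 1, 2 and 3 (mean 42.6 ± 4.97, SD, n = 3) on 761, 429 and 403 fragments. The summits lay within 37 bp. Its background was 2.39 times the genome-wide level in replicate 1, above the upper quartile of the stretch, and 1.64 and 1.55 times in replicates 2 and 3. In all 3 replicates it stood above the place ranked 2, which was from 150064919 to 150066839 with folds of 28.9, 26.3 and 24.5 (mean 26.6 ± 2.23, SD, n = 3). The place ranked 3, from 100449698 to 100450605, had folds of 29.0, 20.6 and 28.3 (mean 25.97 ± 4.68, SD, n = 3) and summits within 2 bp. Only 1 of 3 replicates put rank 2 above rank 3, so their spread does not separate them.

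The places ranked 4 and 5 followed at 20.7 ± 3.10 and 20.5 ± 1.93 (SD, n = 3). They were from 100769377 to 100770660 and from 99678595 to 99680234. The place ranked 6, from 75677055 to 75678139, varied most against its neighbours. It had folds of 21.4, 23.9 and 15.3, and its background in replicate 3, the library with the lowest fold, was 2.67 times the genome-wide level against 1.83 and 1.62 in replicates 1 and 2. The summit held 326, 249 and 208 fragments in replicates 1, 2 and 3. The part of the background in the difference of fold was not tested. The places ranked 7 to 10 were between 18.5 ± 1.92 and 17.5 ± 1.69 (SD, n = 3). They began at 100462958, 95063757, 152456640 and 116311719. From rank 4 on, each pair of neighbours was in its order in only 1 or 2 of the 3 replicates.

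These 10 places were not spread evenly. The places ranked 1, 3, 4, 5 and 7 lay together between 99678595 and 100770660, a span of 1.09 Mb, inside the crowded windows named above. This grouping was noticed after the values were seen. The place ranked 7 was also the widest of the stretch.

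**Figure D5:**
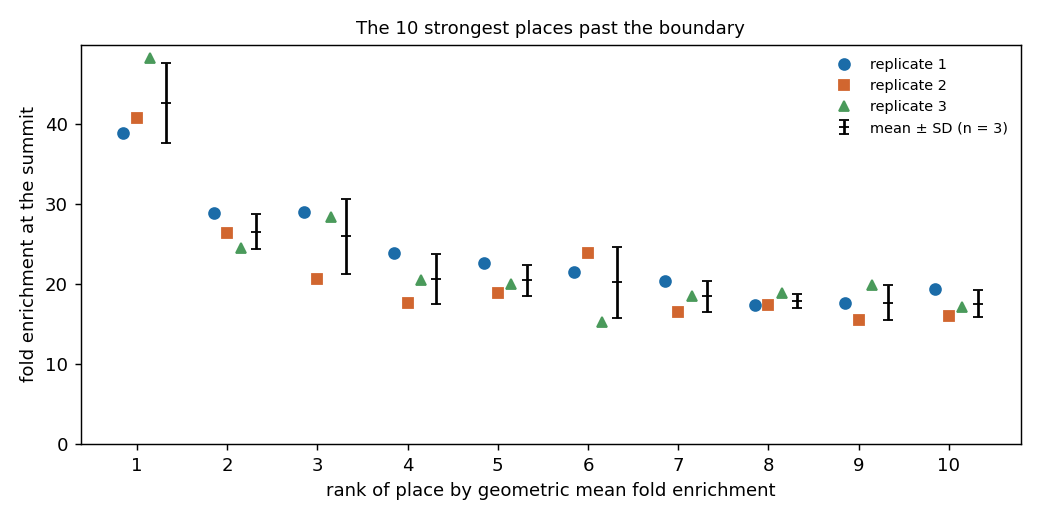
Fold enrichment at the summit (vertical axis) of the 10 places from 70 Mb with the highest geometric mean fold, in rank order (horizontal axis), with 1 point per replicate and the mean ± SD (n = 3) in black. The first place stands apart at 38.9 to 48.2, and the replicates of neighbouring places overlap from rank 2 on.

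The consensus places that ranked highest by background were weak ones. By the lowest value of the libraries that called them, the first 3 consensus places were from 89874284 to 89874881, from 101278807 to 101279074 and from 73476334 to 73476808. Each was called in replicates 1 and 3 alone. The first had a background of 2.48 and 2.32 times the genome-wide level, 47 and 35 fragments, and folds of 2.37 and 2.99. The second was at 2.65 and 2.09, with folds of 2.12 and 2.93. The last was at 2.39 and 2.09, with folds of 1.89 and 2.75, and its summits lay 338 bp apart. These places were selected by their background, which is the denominator of the fold. A place called by fewer libraries also has fewer values from which the lowest is taken. Strong places had high values in single replicates as well. The place ranked 1 by fold was at 2.39 in replicate 1, and the place ranked 6 was at 2.67 in replicate 3.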

How the data were processed

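Chromatin of ONS76 cells was precipitated with MYC or IgG antibodies and sequenced. According to the study's methods, the authors aligned reads to hg19 with Bowtie2 and used MACS2 on every MYC library singly, with a q-value threshold of 0.05. The sources used here do not name the program versions or the control that MACS2 used. The deposited lists hold, for every peak, its position and summit, the fold enrichment (a ratio; MACS2 adds 1 above and below the line), −log10 values of p and q, and a score computed from q. The authors did not scale these between libraries.

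Fragments and local background at each summit were recovered from the deposited fold and −log10 p, since the p-value is a Poisson probability. A whole number of fragments matched within 0.001 for 100% of the peaks in each list. The lowest background was taken as the genome-wide level. Recovery and merging were tested on simulated data. Values over replicates are means ± SD. The 3 measures that were not values of the rule (density, width, sharing) were compared by exact sign-flip tests over replicates with Benjamini-Hochberg adjustment. They still depend on the background, against which peaks are called. The members, named places and tests were chosen with earlier results of these data known. Named places were the 10 strongest found in all 3 replicates, the 3 consensus places with the highest background, the 3 widest and the 3 nearest to 70 Mb on either side. Gene lists named by the same rule were not used.

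The genome and annotation used here are of hg38. The lists hold 715 peaks past the ends of 13 hg38 chromosomes, so they are not in hg38 coordinates, and no gene, promoter or sequence was assigned to a position. Python 3.11.15, numpy 2.4.6, pandas 2.3.3 and scipy 1.17.1 were used.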

Additional observations from a re-analysis of the deposited data

How the results depend on the processing

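Of the 11 planned results, 8 were run. The other 3, which are the share with an E-box, the share at gene starts and the count of genes, need an hg19 reference and were not run. Of the alternatives for density, those per gene start and without unsequenced bases were not run for the same reason. The places found from 70 Mb numbered 828 to 1232 over 10 alternatives and the consensus 491 to 709 over 11, within 1.5 times of the values reported. Leaving out a replicate gave 828 to 1014 places and a consensus of 515 to 580, which then required a peak in both remaining replicates. The density ratio stayed above 1 in all 9 alternatives (1.07 to 1.23) and the width ratio below 1 in all 8 (0.952 to 0.992), with no p below 0.25. The difference in sharing ranged from -3.62 to 0.715 percentage points over 10 alternatives. It reversed in 1 of them, to 0.715 with summits at most 200 bp apart, and the cause was not tested. It was -3.62 with a boundary at 80 Mb, -2.64 with equal numbers of peaks and -1.31 at a q-value of at most 0.001. When a replicate was left out, sharing meant both remaining replicates, and the difference was -2.37 to -0.0928. No exact sign-flip p was below 0.25.

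The fold ratio stayed below 1 in all 10 alternatives. It moved to 0.886 when each list was cut to the length of the shortest by p-value, to 0.842 with nothing added to fragments and background, and to 0.888 at places found in all 3 replicates. The background ratio moved to 1.47 with a boundary at 60 Mb, 1.39 with one at 80 Mb, 1.47 with only the 10000 bp window or the genome-wide level, and 1.44 at places found in all 3 replicates. The ratio of summit fragments moved to 1.19 with a boundary at 60 Mb, 1.11 with one at 80 Mb and 1.20 at places found in all 3 replicates. The values at places found in all 3 replicates, and the density without the interval that holds no peak, were chosen after seeing the data.

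No paired analysis was possible between MYC and IgG, because IgG, the group with the same replicate numbers, enters no result. The sign-flip tests compare both stretches within each MYC library. At single-replicate places from 70 Mb the median peak had 37, 29 and 25 fragments in replicates 1, 2 and 3. A missing call in another library does not show that MYC was absent, and the part of depth in these places was not tested.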
